A study of Mus musculus with 2 samples.

Results

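Apoe, Lyz2 and 8 further genes known from activated microglia (Trem2, Tyrobp, Spp1, Cst7, Lpl, Cd9, Ctsb and Ctsd) were followed in single cells of the mouse retina, 10 of the 32285 genes in the matrices. All 10 were found by symbol. They were chosen by name with the difference between the db/db and wild-type libraries already known, so the levels and ratios below are a description and carry no test. The first library came from C57BLKS-Leprdb/db mice (BKS_DB; db/db), homozygous for the db allele of the leptin receptor gene, which become obese and diabetic. The other library came from C57BLKS-Leprwt/wt mice (BKS_WT; m/m). Both genotypes were on the C57BLKS background, were 13 weeks old and received no treatment. Retinas of both eyes of 2 mice were pooled into 1 droplet library per genotype, and cells could not be assigned to mice. Genotype and library therefore cannot be told apart, and no difference has a replicate check.

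Microglia are the resident phagocytes of the retina, and Müller glia are its principal supporting glia. In mouse models of brain disease, microglia that meet lipid debris take up a state in which Apoe, Lpl, Spp1, Cst7, Cd9 and lysosomal cathepsins are raised while homeostatic genes such as P2ry12 and Tmem119 are lowered. The receptor TREM2, which signals through the adaptor TYROBP and binds lipoprotein particles including those carrying apolipoprotein E, is needed for the full form of that state. In the healthy retina, apolipoprotein E is made mainly by Müller glia.

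Microglia or macrophages were gated as cells with unique molecular identifiers (UMIs, single captured RNA molecules) of at least 4 of 14 marker genes that together made up at least 1% of the cell's UMIs. Müller glia needed at least 5 of 12 markers and 1% of UMIs. None of the 10 genes was a gate marker. The microglia gate held 48 of 10963 kept db/db cells (0.438%, Clopper-Pearson 95% interval 0.323 to 0.580%) and 53 of 10230 kept wild-type cells (0.518%, 0.388 to 0.677%). The Müller gate held 135 db/db cells (1.23%, 1.03 to 1.46%) and 252 wild-type cells (2.46%, 2.17 to 2.78%). Müller glia thus made up a smaller share of the db/db library. All intervals here and below cover counting error only. The gated microglia had a median of 4585 UMIs per cell in the db/db library and 1469 in the wild-type library. Each of the 14 microglia markers was detected in both libraries, and all gated microglia lay in the cluster with those markers. No T cell, B cell, natural killer or neutrophil marker on the list of 10 was detected in them, nor any of the 5 pericyte and 4 astrocyte markers. Of the 135 and 252 Müller-gated cells, 83 db/db and 168 wild-type cells lay in the Müller cluster, and 49 and 79 in rod clusters, with medians of 814 and 768 UMIs. One further db/db cell passed the Müller gate but lay in the microglia cluster. It had 18717 UMIs, of which 475 were of Müller markers and 186 of all 14 microglia markers. The libraries shared 26 cell barcodes, of which 0 were of gated microglia and 2 of Müller glia.

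Windows of 300 bases around annotated transcription starts show the upstream context of the genes that the results turn on: Apoe and Lyz2, which were higher in db/db microglia, and Trem2 and Ctsd, which were not. They come from the RefSeq annotation of GRCm38.p6, which gave a window for 7 of the 10 genes. The window shown for Apoe lies at chr7:19699139-19699438 on the minus strand and that for Lyz2 at chr10:117282223-117282522 on the minus strand. That for Trem2 lies at chr17:48346151-48346450 on the plus strand and that for Ctsd at chr7:142387778-142388077 on the minus strand. Apoe had further windows, starting at 19698572 and 19698349, which are not shown and held none of the motifs searched for below. Capitals mark the AP-1 motif in Trem2 and the E-boxes in Ctsd.
Apoe: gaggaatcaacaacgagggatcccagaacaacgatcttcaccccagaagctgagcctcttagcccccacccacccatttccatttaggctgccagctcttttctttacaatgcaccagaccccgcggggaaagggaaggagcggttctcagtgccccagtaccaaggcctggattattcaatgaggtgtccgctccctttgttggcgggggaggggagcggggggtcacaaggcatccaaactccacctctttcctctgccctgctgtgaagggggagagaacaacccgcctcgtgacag
Lyz2: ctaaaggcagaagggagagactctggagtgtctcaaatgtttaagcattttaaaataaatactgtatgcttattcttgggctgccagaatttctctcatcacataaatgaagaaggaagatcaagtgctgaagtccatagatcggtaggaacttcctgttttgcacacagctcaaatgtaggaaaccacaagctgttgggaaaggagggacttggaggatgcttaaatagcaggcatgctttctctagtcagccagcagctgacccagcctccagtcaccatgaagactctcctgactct
Trem2: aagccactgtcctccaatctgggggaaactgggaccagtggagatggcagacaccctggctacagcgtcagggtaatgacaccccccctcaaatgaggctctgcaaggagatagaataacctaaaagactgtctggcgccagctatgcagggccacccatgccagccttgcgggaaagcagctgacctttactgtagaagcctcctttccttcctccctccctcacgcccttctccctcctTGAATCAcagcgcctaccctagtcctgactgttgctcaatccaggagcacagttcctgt
Ctsd: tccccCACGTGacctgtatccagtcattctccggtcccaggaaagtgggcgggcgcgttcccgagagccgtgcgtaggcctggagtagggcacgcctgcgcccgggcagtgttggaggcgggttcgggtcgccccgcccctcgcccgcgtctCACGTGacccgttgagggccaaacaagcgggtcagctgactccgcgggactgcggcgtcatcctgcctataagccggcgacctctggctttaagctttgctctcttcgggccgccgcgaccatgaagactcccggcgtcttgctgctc

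These letters were searched on both strands for a core of the site of PU.1, the macrophage lineage factor (GAGGAAGT), for the AP-1 site (TGANTCA) and for the E-box of the lysosomal CLEAR element (CACGTG). They occur in 3.20%, 7.81% and 7.15% of the 32851 windows in the table, and the motifs do not overlap in the windows shown. Ctsd held 2 E-boxes and Trem2 1 AP-1 match, and among the windows not shown Spp1 held 1 PU.1 match and Cst7 1 AP-1 match. No match says only that these letters are absent from that window.

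In the microglia sums, Apoe was 10.4-fold higher in the db/db library and Lyz2 1.99-fold higher, whereas Trem2, Tyrobp, Cd9, Ctsb and Ctsd differed by less than 1.5-fold. Spp1, Cst7 and Lpl had too few UMIs for a ratio. A gene counted as measured with at least 50 UMIs in the class over both libraries, and as higher or lower from a 1.5-fold difference in counts per 1000000 UMIs of the class (CPM). By that rule 2 of the 7 measured genes were higher and 0 lower in db/db microglia. Over all 1153 measured genes, 7.81% were higher and 9.97% lower, with a median log2 ratio of -0.02. The median of the 7 was -0.08 and their mean 0.53, which Apoe makes positive. In Müller glia 0 of 4 measured genes were higher and 0 lower, where 4.63% of 6286 genes were higher and 6.06% lower.

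Apoe (ENSMUSG00000002985, chr7:19696109-19699188, minus strand) encodes apolipoprotein E, the lipid carrier that cells secrete to move cholesterol and phospholipid. Its UMIs in gated microglia summed to 2799 in the db/db library and 226 in the wild-type library, or 13461 and 1296 CPM. The log2 ratio was 3.38, with a conditional binomial 95% interval of 3.18 to 3.58. The difference lay less in the number of positive cells than in the number of cells with many Apoe UMIs, given below. A UMI of Apoe was found in 24 of 48 db/db cells (95% interval 35.2 to 64.8%) and in 18 of 53 wild-type cells (34.0%, 21.5 to 48.3%). After each cell was thinned to 1000 UMIs, which left 36 db/db and 38 wild-type cells, the shares were 30.6% and 28.9%, but these cells held 562 and 62 Apoe UMIs. The background is lower, as taken from the rod clusters, since rods are not known to make Apoe. There a UMI was found in 9.50% of db/db cells at a median of 1935 UMIs. In wild-type cells it was 13.2%, at a median of 2201 UMIs. A rod cluster of 378 db/db and 568 wild-type cells, any gated cells included, had the Müller markers Rlbp1 and Crym among its top genes. These shares may therefore not be background alone, which was not tested.

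Per cell, Apoe in db/db microglia ran from 0 to 1543 per 10000 UMIs, with a median of 0.625, a 90th percentile of 578 and a mean of 149. In wild-type microglia it ran from 0 to 213 per 10000, with a median of 0, a 90th percentile of 18.6 and a mean of 12.1. The groups overlapped widely at the low end, and the db/db library alone had cells above 213. Few cells carried the sum in either library. The highest cell held 951 UMIs, or 34.0% of the total, in the db/db library and 136 UMIs, or 60.2%, in the wild-type library. The 5 highest cells held 85.1% and 88.5%. Without the 1, 3 or 5 highest cells of each library the log2 ratio was 4.09, 4.18 and 3.78, but this also removes most of the wild-type UMIs. Without the 5 highest db/db cells alone it was 0.85 (0.61 to 1.09), from 2330 CPM in the other 43 db/db cells and 1296 CPM in all 53 wild-type cells.

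**Figure D1:**
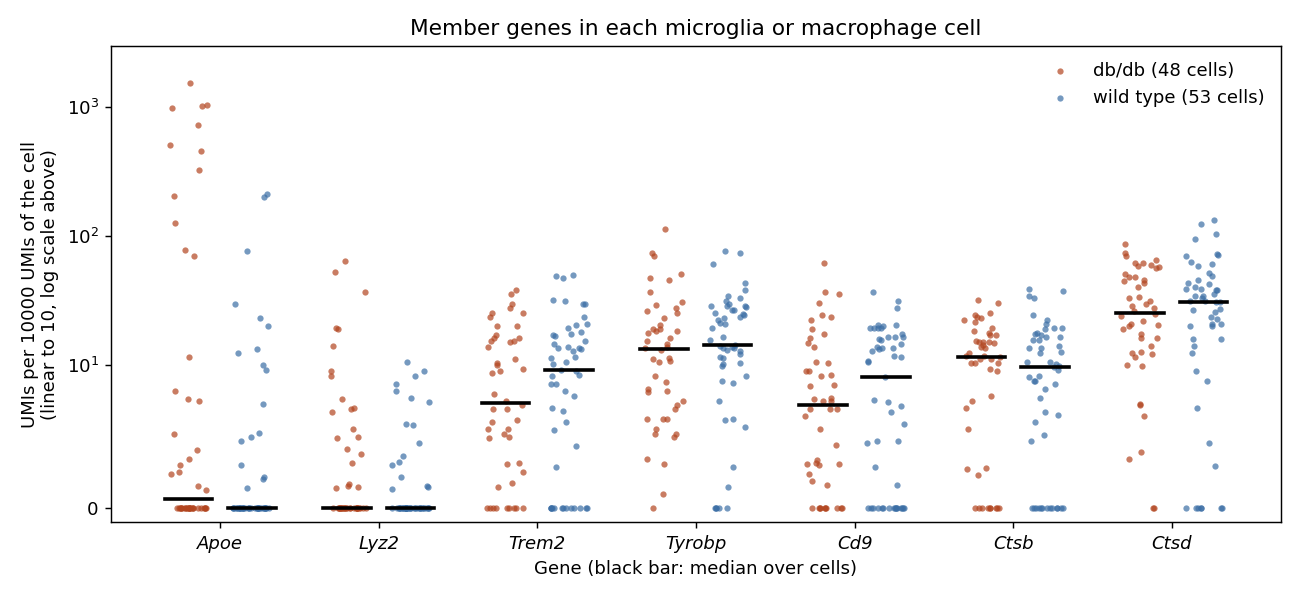
UMIs of the 7 measured genes per 10000 UMIs of each gated microglia or macrophage cell, on an axis that is linear to 10 and logarithmic above, with db/db cells left of wild-type cells and black bars at the medians. Apoe reaches 1543 in the db/db library and 213 in the wild-type library, while most cells of both libraries lie near 0, and Trem2 to Ctsd overlap throughout.

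At least 20 Apoe UMIs were found in 11 db/db cells and 2 wild-type cells, a limit set after the values were seen, with 2 and 0 cells between 10 and 40 UMIs. Apoe made up 0.774 to 15.4% of all UMIs in these db/db cells, against 2.01 to 2.13% in the wild-type cells. The difference rested on these cells. The other 37 db/db cells held 30 Apoe UMIs (184 CPM, 124 to 263) and the other 51 wild-type cells 48 (290 CPM, 214 to 384), a log2 ratio of -0.65 (-1.36 to 0.03), so the direction turned without them. The 11 db/db cells had a median of 4311 UMIs, and Tyrobp was detected in all 11, Lyz2 in 10 and Trem2 in 7. Müller glia markers were nearly absent from them, with at most 2 UMIs in a cell and 6 over the 11 cells, all of them Glul. Over all gated microglia, 6 of the 12 Müller markers were detected in db/db cells, at a summed 452 CPM, and 9 of 12 in wild-type cells, at 527 CPM. The 9 pigment epithelium markers summed to 4 UMIs in db/db and 2 UMIs in wild-type microglia.

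**Figure D2:**
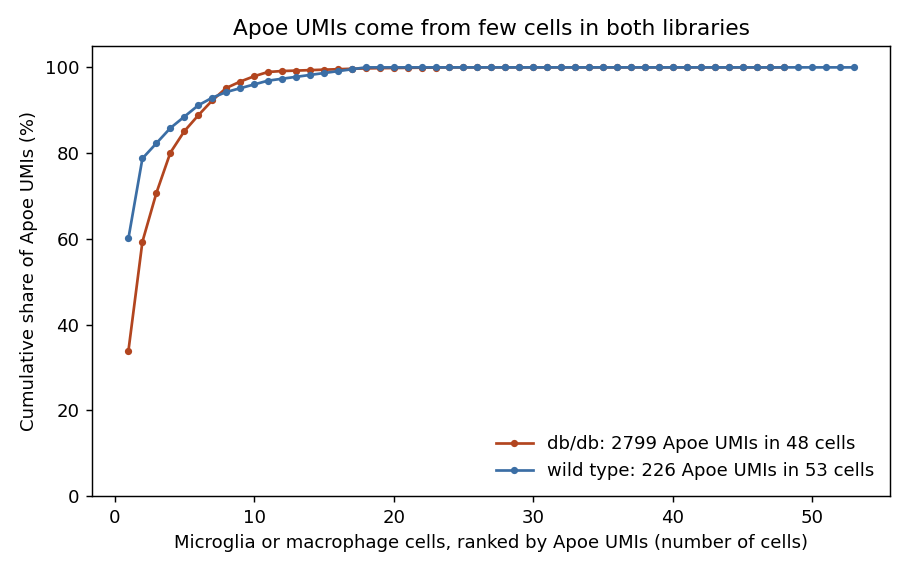
Cumulative share of the Apoe UMIs of gated microglia or macrophages, in percent, against the number of cells ranked by Apoe UMIs, with 1 line per library. The 5 highest cells hold 85.1% of the 2799 UMIs in the db/db library and 88.5% of the 226 UMIs in the wild-type library.

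The gate does not separate microglia from macrophages. At least 2 UMIs of an 11-gene macrophage list (Mrc1, Pf4, Ms4a7 and others) were found in 3 gated cells of each library, which held 395 Apoe UMIs in the db/db library and 179 in the wild-type library. The other gated cells held 2404 and 47 Apoe UMIs. The log2 ratio without the macrophage-marked cells was 5.34, since the 2 highest wild-type cells, with 136 and 42 Apoe UMIs, were among those left out. Both carried the antigen presentation genes H2-Aa (50 and 33 UMIs) and Cd74 (151 and 62 UMIs). H2-Aa was at 0 in each of the 11 high db/db cells except 1, which had 3. The 5 db/db cells with most Apoe were also set against the other 43 of that library, as a description, since Apoe chose them. Their summed homeostatic genes were low, with P2ry12 at 104 CPM and Tmem119 at 173 CPM, against 615 and 704 CPM in the other cells. The macrophage list had 12 UMIs among the 28983 of the 5 cells and 17 among the 178951 of the others, with 10 of the 12 from 1 macrophage-marked cell, and its part in these values was not tested. Ctsd was at 1001 CPM against 3370 CPM and Cd9 at 414 against 989 CPM, whereas Trem2 was at 828 against 1034 CPM. Lyz2 was at 690 CPM against 246 CPM. High Apoe thus did not come with high cathepsin D or Cd9 in these 5 cells.

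A further 12 db/db and 10 wild-type cells lay in the microglia cluster but passed neither gate. They held 236 Apoe UMIs (5694 CPM, Poisson 95% interval 4991 to 6469) in the db/db library and 5 (124 CPM, 40.4 to 290) in the wild-type library. Most of the db/db UMIs came from cells with 72, 69, 52 and 30 Apoe UMIs. The direction was that of the gated cells. As these cells share their cluster and libraries with the gated cells, they are no separate check.

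Lyz2 (ENSMUSG00000069516, chr10:117277331-117282321, minus strand) encodes the lysozyme of macrophages, monocytes and neutrophils, which cuts bacterial cell walls. Gated microglia held 64 Lyz2 UMIs (308 CPM) in the db/db library and 27 (155 CPM) in the wild-type library, a log2 ratio of 0.99 (0.32 to 1.70). The lower bound corresponds to 1.25-fold, below the 1.5-fold limit. Lyz2 was found in 22 of 48 db/db cells (45.8%) and 17 of 53 wild-type cells (32.1%), or in 27.8% and 18.4% after thinning. No gated cell held more than 9 UMIs in the db/db library or 4 in the wild-type library, and the 5 highest cells held 46.9% and 48.1% of the UMIs, against 85.1% and 88.5% for Apoe. The 11 db/db cells with at least 20 Apoe UMIs held 3, 9, 0, 5, 3, 1, 6, 2, 3, 4 and 5 Lyz2 UMIs. These were most of the 64 db/db UMIs, while the 2 such wild-type cells held 1 and 0. The Lyz2 difference thus lay largely in the cells high in Apoe, and a Lyz2 ratio without them was not taken. With a stricter gate (6 of 14 markers and 2% of UMIs) the log2 ratio of Lyz2 was 0.49 (-0.25 to 1.27), which is no longer past the limit. Both Lyz2 and Apoe were found in 14 db/db and 9 wild-type cells. Lyz2 was rare in neurons, with 0.042% of db/db and 0.012% of wild-type rods holding a UMI. Its neighbour Lyz1 (ENSMUSG00000069515) has a transcript 96.0% identical over 1262 aligned bases, so reads that both copies share cannot be assigned with certainty. Lyz1 had 0 UMIs in gated microglia of both libraries.

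The size of the Lyz2 difference depended on a single cell in wider counts. Over all kept cells Lyz2 had 353 UMIs in the db/db library and 32 in the wild-type library, a log2 ratio of 3.55. One db/db cell of the microglia cluster, outside the gate, held 278 of the 353. It had 8321 UMIs, of which Lyz2 made up 3.34%, with 13 UMIs of F13a1 and 6 of Ccr2, genes of monocytes, 28 of Tyrobp, 8 of Apoe and 0 of Trem2. Only 0.565% of its UMIs were of gate markers. Without it the library sums were 75 and 32 UMIs, a log2 ratio of 1.31 (0.70 to 1.96).

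Trem2 (ENSMUSG00000023992, chr17:48346401-48354147, plus strand) encodes a lipid and lipoprotein receptor of microglia. It had 209 UMIs (1005 CPM) in db/db microglia and 191 (1095 CPM) in wild-type microglia, a log2 ratio of -0.12 (-0.41 to 0.17). It was found in 81.2% of db/db and 75.5% of wild-type cells, with highest values of 38.2 and 49.5 per 10000 UMIs. Tyrobp (ENSMUSG00000030579, chr7:30413760-30417585, plus strand), its signalling adaptor, had 251 UMIs (1207 CPM) in db/db and 249 (1427 CPM) in wild-type microglia, a log2 ratio of -0.24 (-0.50 to 0.02). Both genes were found together in 39 db/db and 37 wild-type cells. The intervals, for counting error alone, lie below a 1.5-fold increase of either gene in these sums.

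Of the inducible secreted and lipid genes, Spp1 (chr5:104435118-104441050), which encodes osteopontin, had 5 UMIs in 2 db/db microglia, 4 of them in a cell with 104 Apoe UMIs, and 0 UMIs in wild-type microglia. A count of 0 there, taken as up to 3 UMIs, allows 17.2 CPM. Cst7 (chr2:150570415-150578944), the cysteine protease inhibitor cystatin F, had 0 UMIs in db/db and 3 UMIs in wild-type microglia. Lpl (chr8:68880491-68907448), the lipase that splits triglycerides of lipoproteins, had 9 UMIs in 2 db/db cells and 6 UMIs in 3 wild-type cells. A difference in these 3 genes was not detectable at this depth. Over all kept cells Spp1 had 6 UMIs in the db/db library and 1 in the wild-type library, and Cst7 0 and 4. Lpl had 38 and 42 UMIs, most of them outside microglia, with 11 in db/db and 8 in wild-type bipolar cells.

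Cd9 (ENSMUSG00000030342, chr6:125460266-125494791, minus strand), a tetraspanin of membranes and exosomes, had 189 UMIs (909 CPM) in db/db and 177 (1015 CPM) in wild-type microglia, a log2 ratio of -0.16 (-0.46 to 0.15). The lysosomal protease gene Ctsb (ENSMUSG00000021939, chr14:63122462-63145923, plus strand) had 272 UMIs (1308 CPM) in db/db and 241 (1382 CPM) in wild-type microglia, a log2 ratio of -0.08 (-0.33 to 0.18). Ctsd (ENSMUSG00000007891, chr7:142375911-142388038, minus strand), the aspartic protease cathepsin D, had 632 UMIs (3039 CPM) in db/db and 558 (3199 CPM) in wild-type microglia, a log2 ratio of -0.07 (-0.24 to 0.09). The interval of each of the 3 excludes a 1.5-fold difference in either direction. Per cell, median Ctsd was 25.5 per 10000 UMIs in db/db and 30.9 in wild-type microglia, and the highest cell had 86.1 and 134, so the libraries overlapped throughout.

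**Figure D3:**
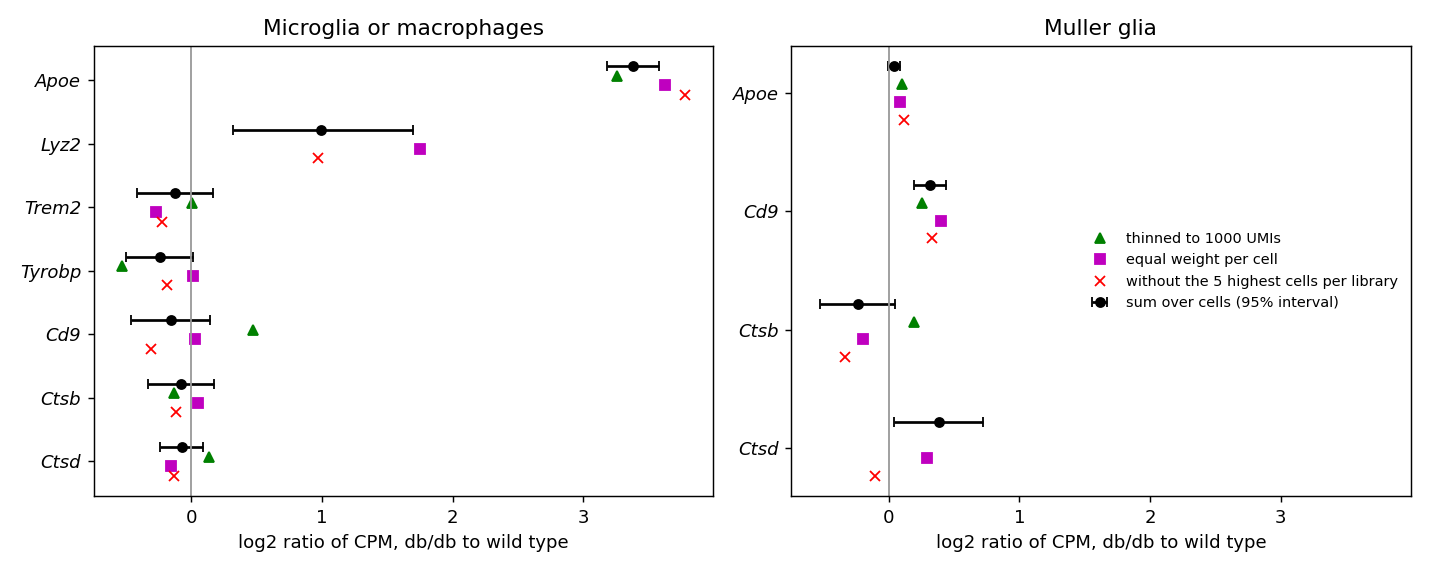
Log2 ratio of CPM, db/db to wild type, of each measured gene in gated microglia or macrophages (left) and Müller glia (right). Black points with 95% intervals are sums over cells, and coloured marks show thinned cells, equal weight per cell and sums without the 5 cells with most of the gene. In the microglia sums Apoe lies near 3.38 and Lyz2 near 0.99 while the other 5 lie around 0. In Müller glia all 4 lie between -0.23 and 0.39 in the sums.

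The other genes of the activated state that could be measured showed no shift like that of Apoe. Of 26 further genes raised in activated microglia, 25 were in the matrices by symbol and 15 were measured in microglia. Axl, Csf1, Ccl6, Itgax, Gpnmb, Fabp5, Ank, Igf1, Lgals3 and Apoc1 had too few UMIs, so the state was seen only in part. Of the 15 measured genes 0 were higher and 3 lower, with a median log2 ratio of -0.15. These counts of 0 and 3 among 15 stand beside 7.81% higher and 9.97% lower over all measured genes. A departure from those shares was not tested. The lower genes were Cd52, a leukocyte surface glycopeptide (-0.89), and the antigen presentation genes B2m (-0.64) and H2-D1 (-0.61). The highest by their interval bounds were Cd83, an activation marker of antigen-presenting cells (0.52, 0.28 to 0.77), the cystatin Cstb (0.47) and the ferritin chain Fth1 (0.31, 0.19 to 0.44), all under the limit. Of 10 genes of TREM2 signalling, 6 were measured, with 0 higher and 1 lower, the kinase Lyn (-0.61), and a median of -0.20. Fcer1g (-0.28), Inpp5d (-0.22), Spi1 (-0.19), Pik3ap1 (-0.14) and Ptpn6 (0.03) made up the rest. Of 14 genes of apolipoprotein and cholesterol handling, 2 were measured, Npc2 (-0.36) and the apolipoprotein receptor Lrp1 (0.27). Apoc1, which neighbours Apoe and is induced with it in macrophages, was not measured. Of 21 lysosome and cathepsin genes, 17 were measured, with 0 higher and 3 lower and a median of -0.25. The lower genes included the protease Ctsc (486 CPM in db/db and 969 CPM in wild-type microglia) and Grn, which encodes progranulin (-0.59). Ctss was at -0.42 and the inhibitor Cst3 at -0.35, while Cstb (0.47), Ctsh (0.25) and Ctsl (0.13) were the highest. Of 9 tetraspanins 4 were measured and 0 passed the limit, with a median of -0.09 (Cd81 -0.22, Cd63 -0.15, Cd37 -0.02, Cd53 0.02). Ctss, Fcer1g and Cd53 are also gate markers, and several genes stand on more than 1 list.

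In Müller glia, Apoe differed little between the libraries and was present in almost every cell. It had 5669 UMIs (9167 CPM) in db/db and 10699 UMIs (8898 CPM) in wild-type Müller glia, a log2 ratio of 0.04 (-0.00 to 0.09). All 135 db/db cells and 243 of 252 wild-type cells (96.4%) held a UMI. Per cell, the db/db values ran from 10.7 to 243 per 10000 UMIs with a median of 81.9, and the wild-type values from 0 to 606 with a median of 79.1. The 5 highest cells held 11.1% of the sum in the db/db library and 10.96% in the wild-type library, a much more even spread than in microglia. In all kept cells together, Apoe was at 342 CPM in the db/db library and 414 CPM in the wild-type library, a log2 ratio of -0.27, beside the smaller share of Müller glia in the db/db library. In a sum over the whole tissue, fewer Müller glia and less RNA per cell cannot be told apart.

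**Figure D4:**
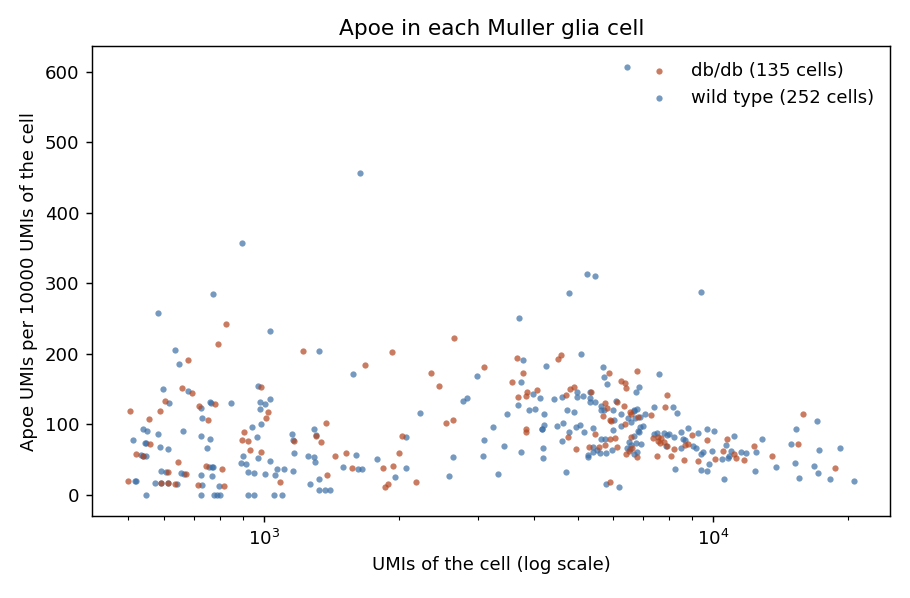
Apoe UMIs per 10000 UMIs of each Müller glia cell against the cell's UMIs on a logarithmic axis. The 135 db/db cells lie between 10.7 and 243 and the 252 wild-type cells between 0 and 606, with medians of 81.9 and 79.1, over the same range of depth.

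Cd9 was the other gene of the group with a high count in Müller glia, with 869 UMIs (1405 CPM) in the db/db library and 1356 (1128 CPM) in the wild-type library, a log2 ratio of 0.32 (0.19 to 0.44). Its medians were 13.1 and 10.1 per 10000 UMIs. Ctsb had 147 UMIs (238 CPM) in db/db and 336 (279 CPM) in wild-type Müller glia, a log2 ratio of -0.23 (-0.52 to 0.05). Ctsd had 123 UMIs (199 CPM) in db/db and 183 (152 CPM) in wild-type Müller glia, a log2 ratio of 0.39 (0.04 to 0.72), but 29 of the 123 came from the db/db cell in the microglia cluster, and without that cell the ratio was 0.04. That cell also held all 7 Trem2 and all 5 Tyrobp UMIs of db/db Müller glia, whose wild-type counterparts had 1 UMI of each. Lyz2 had 1 and 0 UMIs, Lpl 0 and 1, and Spp1 and Cst7 0 in both libraries. The Müller glia of these libraries thus gave no measured level of 6 of the 10 genes.

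Over all 6286 measured genes in Müller glia, 4.63% were higher and 6.06% lower. Among further genes there, 11 of the activated microglia genes were measured, with 1 higher, 0 lower and a median log2 ratio of 0.16. The higher gene was Apoc1 (1.32, 0.52 to 2.13, 32 UMIs in db/db and 25 in wild-type cells). Npc2 (0.52) and Fth1 (0.12) came next by interval bound, and Timp2 (-0.22), Cstb (0.06) and Cadm1 (0.07) were the lowest. Of the 14 lipid handling genes 8 were measured, with 2 higher and 1 lower and a median of 0.27. The higher genes were Apoc1 and Soat1, which makes cholesterol esters (0.76, 0.16 to 1.35, 47 UMIs in db/db and 54 in wild-type cells). The lower gene was the liver X receptor Nr1h2, which controls cholesterol efflux (-0.74, -1.54 to 0.0006, 20 and 65 UMIs). Each of these intervals reaches inside the 1.5-fold limit. Npc2 (0.52), Scarb1 (-0.17) and Abcg1 (-0.22) lay between these genes. Of 15 measured lysosome genes 0 were higher and 1 lower, with a median of 0.07, and Cst3 (0.56), Ctsc (0.40), Ctso (0.34), Ctsa (-0.28) and Hexa (-0.46) within the limit. Of 6 measured tetraspanins 0 passed the limit, with a median of 0.16, from Cd63 (0.11), Tspan3 (0.12), Tspan4 (0.12) and Tspan7 (0.19) to Cd81 (0.31) and Cd151 (0.58). No gene of TREM2 signalling was measured there.

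Across cell classes, the order of summed Apoe levels differed between the libraries. In the db/db library gated microglia were highest at 13461 CPM, followed by Müller glia at 9167 CPM and pigment epithelium at 8724 CPM (7746 to 9792), the last 2 with intervals that overlap. The place of microglia rests on their 5 highest cells, as the other 43 were at 2330 CPM and the median cell had 0.625 per 10000 UMIs, against 81.9 in Müller glia. In the wild-type library Müller glia were highest at 8898 CPM, followed by pigment epithelium at 6654 CPM (6086 to 7261) and gated microglia at 1296 CPM, with intervals that do not overlap. Cells of the Müller cluster outside the gate, 8 in the db/db and 18 in the wild-type library, had 6531 and 2917 CPM. Neurons were far lower in both libraries. Bipolar cells had 123 CPM in db/db and 184 CPM in wild-type cells, amacrine cells 48.2 and 184 CPM, cones 57.8 and 73.3 CPM, and rods 59.1 and 80.7 CPM. In the db/db library the interval of amacrine cells overlapped those of bipolar cells, cones and rods, and in the wild-type library those of cones and rods and those of amacrine and bipolar cells. Erythroid cells had 0 and 2 UMIs. The lower values in db/db rods and bipolar cells went along with the smaller share of Müller glia in that library. The rod clusters include a cluster of 378 db/db and 568 wild-type cells with the Müller markers Rlbp1 and Crym among its top genes. The part of such cells and of free RNA in these values was not tested.

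**Figure D5:**
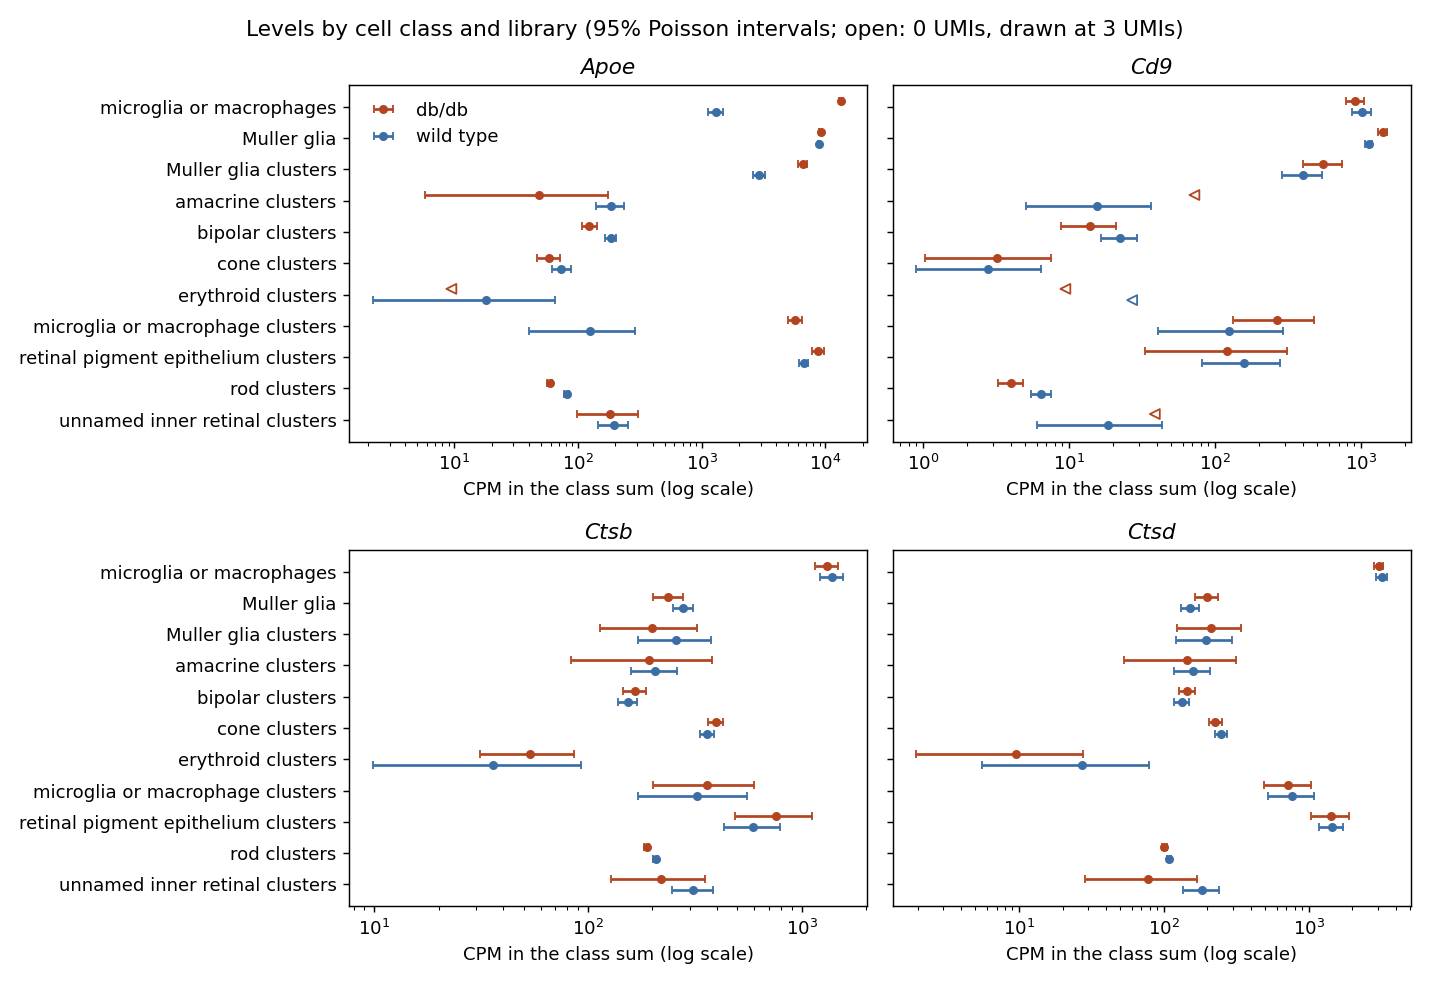
Levels of Apoe, Cd9, Ctsb and Ctsd in each cell class, as CPM on a logarithmic axis with Poisson 95% intervals, db/db above wild type. The first 2 rows are the gated classes and the others are clusters without the gated cells; open triangles mark 0 UMIs, drawn at the level of 3 UMIs. Apoe in gated microglia is at 13461 CPM in the db/db library and 1296 CPM in the wild-type library, and Cd9, Ctsb and Ctsd differ less between the libraries in the gated classes.

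Trem2 and Tyrobp UMIs lay almost entirely in the microglia gate and cluster. Among the other classes, rods held most cells, with 1 UMI of Trem2 and 3 of Tyrobp in the db/db library and 7 and 6 in the wild-type library. Cd9 was high in Müller glia and microglia and low in neurons, with 3.99 CPM in db/db and 6.43 CPM in wild-type rods. Ctsb and Ctsd were found in every class. For Ctsd, pigment epithelium came after microglia, with 1424 CPM in the db/db library and 1439 CPM in the wild-type library, and rods had 101 and 109 CPM. Ctsb had 757 CPM in db/db and 594 CPM in wild-type pigment epithelium, 395 and 361 CPM in cones and 188 and 208 CPM in rods.

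The genes most like these in their pattern over 10 points, the 5 cell classes with at least 50 cells in each of the 2 libraries, were ranked by the Pearson correlation of log2(CPM + 1) among 11257 genes. The classes were clusters here, because the gated db/db microglia numbered 48. For Apoe they were Glud1, Rcc2, Cd44, Klf4 and Smox (r from 0.978 to 0.994), for Lyz2 they included Mtmr12, Tmem119, Rbm3 and Tfe3 (r from 0.985 to 0.987), and for Trem2 C1qa, Tyrobp, Ctss, Fyb and Ccl12 (r from 0.997 to 0.999). The db/db microglia cluster includes the cell with 278 Lyz2 UMIs, which sets most of the Lyz2 level at that point. The points of a library share its depth and free RNA, and the correlations describe these 10 points only.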

How the data were processed

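The deposited values are raw counts of UMIs per gene and cell barcode, made by the authors with cellranger 6.0.1, per the file headers, and the submitters' processing notes name mm10. The gene annotation and whether counting used read strand are not given in the sources used here. Per the labels' protocols, the libraries were 10x Genomics 3' libraries of dissociated retina. The libraries held 33742189 UMIs over 11083 barcodes (db/db) and 35642274 over 10308 (wild type), starting at 500 and 508 UMIs. Both matrices hold far more barcodes than the number of cells the labels give as the aim, which bears on shares of kept cells.

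Cells with at least 200 genes and at most 20% mitochondrial UMIs were kept (10963 db/db and 10230 wild-type cells, medians of 2051 and 2314 UMIs). Scrublet in scanpy 1.11.5 marked 2 db/db and 0 wild-type cells, so the caller had not worked and doublets stayed in. Gates used marker lists, and other classes were Leiden clusters (2000 variable genes, 40 components, 15 neighbours, resolution 1) named by marker lists, with the naming of rod clusters settled after the data were seen. UMIs were summed per class and library and scaled to 1000000. Intervals are exact at 95%: Poisson for sums, Clopper-Pearson for shares and conditional binomial for ratios. No test between genotypes was made, as each had 1 library. The rule named all 10 genes, the 3 highest and 3 lowest genes of each list by the interval bound nearest 0, Lyz1, and the 5 genes most like Apoe, Lyz2 and Trem2. The genes and lists were chosen with earlier results of these data known. GENCODE M21 of GRCm38 held 32235 of the 32285 genes. A few genes within these rules were left out of the text.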

Additional observations from a re-analysis of the deposited data

Results flagged for a closer look

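In the db/db library, 1 cell that lay in the microglia cluster but outside the gate, and so entered no comparison of gated cells, held 278 Lyz2 UMIs, more than the 64 UMIs of all 48 gated db/db microglia together. It also held 13 UMIs of F13a1 and 6 of Ccr2, and no wild-type cell outside the gate in that cluster came near it, as the 10 such cells held 3 Lyz2 UMIs in all.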

How the results depend on the processing

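No paired analysis was possible because each genotype had 1 library. The number of the 10 genes at least 1.5-fold higher in microglia was 2; it was 1 with a stricter gate (6 of 14 markers and 2% of UMIs), 1 with cells thinned to 1000 UMIs, where Lyz2 fell under the minimum of 50 UMIs, 1 with a minimum of 200 UMIs and 1 at a 2-fold limit, and Apoe passed in each. In Müller glia it was 0, and 2 without a minimum, where the db/db UMIs of Trem2 and Tyrobp came from 1 cell. The log2 ratio of Apoe in microglia was -0.65 without the gated cells of 20 or more Apoe UMIs and 0.85 without the 5 highest db/db cells alone, and lay between 3.26 and 5.34 under the other alternatives; that of Lyz2 lay between 0.49 (stricter gate) and 3.21 (class from clusters, which adds the cell with 278 UMIs) over 13; the causes of the other shifts were not tested. Apoe in Müller glia lay between -0.03 and 0.11. Of the counts of genes past the limit, the list medians and the shares of gated cells, 97 values under alternatives kept within their limits and 5 moved. The median of the other activated genes in microglia was above 0 under 3 of 13 alternatives (class from clusters, thinned, equal weight per cell), up to 0.05. The alternatives without the highest Apoe cells, the macrophage-marked cells, the Müller-gated cells in rod clusters or the cell with both marker sets were chosen after seeing the data. With 48 db/db and 53 wild-type gated cells, at medians of 4585 and 1469 UMIs, depth limits what rare genes can show.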
